A study of Mus musculus with 8 samples.

Results

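The MYC-MAX network is a family of basic helix-loop-helix leucine zipper transcription factors, and 9 of its genes were examined: Myc, Max, Mxd1, Mxd3, Mxd4, Mxi1, Mnt, Mlx and Mga. They were taken by name from the 18473 genes of the deposited table, by a rule that uses no values, though the set was proposed with earlier results of these data known, and all 9 were present. The samples were 8 libraries of total RNA from mouse cells, 4 titled EXO and 4 titled LPS, with replicates numbered 1 to 4 in each group. No library was titled as untreated, so "rose" and "fell" below mean higher or lower in EXO than in LPS. The design text speaks of macrophages given ADSC-Exos, a common short form for exosomes, the vesicles cells release, from adipose-derived stem cells, and it asks how they act on macrophage polarization. LPS is the common short form of lipopolysaccharide, an outer membrane molecule of Gram-negative bacteria to which macrophages respond. The labels give no dose, no time and no statement of whether the EXO cells also received LPS, and they name for all 8 libraries the same tissue (lung), cell type (epithelial cell) and cell line (MLE-12, which was derived from mouse lung epithelium and grows indefinitely).

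The marker genes that could be checked were those of macrophages rather than of epithelium, although few epithelial markers were among them. Levels are in FPKM, fragments scaled to gene length and library depth. Of 15 macrophage markers 14 reached a mean of 1 FPKM, with a summed level of 5938 to 7516 FPKM in EXO and 10710 to 22230 FPKM in LPS libraries, most of it from Lyz2, Fcer1g and Tyrobp. Of the 14 tested, 12 fell in EXO (limma adjusted p under 0.05), against 24.7% of all tested genes. Of 18 lung epithelial markers 2 were analysed, Ocln and Elf3, the others not being analysed here, and their summed level did not exceed 0.0133 FPKM in EXO or 0.0233 FPKM in LPS. Of 10 alveolar macrophage markers 6 were analysed, and Fabp4 was the one whose mean reached 1 FPKM. Stromal markers (5 of 10 analysed) summed to 0.399 to 0.605 FPKM in EXO and 0.444 to 0.632 FPKM in LPS, and lymphocyte markers (4 of 10 analysed) to at most 0.265 FPKM. Neutrophil markers (5 of 9 analysed) summed to 4.06 to 7.29 FPKM in EXO and 5.48 to 11.6 FPKM in LPS, mostly from S100a8 and Csf3r. Depth was even, between 37014760 and 40591444 fragments per library. In bulk RNA, fewer cells of a type and less RNA per cell cannot be told apart.

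MYC binds DNA only as a pair with MAX, at E-boxes such as CACGTG, and raises transcription of genes for ribosome production, nucleotide and polyamine synthesis and the cell cycle. The MXD proteins, MXI1 and MNT compete for MAX and occupy the same sites with SIN3 corepressors and histone deacetylases. MLX is a parallel partner that pairs with the glucose-sensing factors MONDOA (Mlxip) and ChREBP (Mlxipl) and with some MXD proteins and MNT, and MGA pairs with MAX inside a Polycomb-type repressor, PRC1.6. In macrophages Myc is low at rest and is induced by growth factors.

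E-boxes stand in the promoters of several of these genes themselves, and the sites are shown because the network's own binding letters occur there. RefSeq promoter windows (build GRCm38.p6, 250 bases before to 50 bases after a start site) were matched for 8 of the 9 genes, Myc being the one not matched. CACGTG, which reads the same on both strands, occurred in 4 of the 10 windows of these genes, those of Max, Mxd4, Mnt and Mlx. It occurred in 7.15% of 32851 RefSeq windows and in 10.7% of the windows of tested genes. The E-box is in capitals in the 60-base stretches below, all written 5′ to 3′ on the strand of the gene.
Max, chr12:76962219-76962278, minus strand: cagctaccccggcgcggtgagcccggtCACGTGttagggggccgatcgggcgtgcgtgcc
Mxd4, chr5:34187897-34187956, minus strand: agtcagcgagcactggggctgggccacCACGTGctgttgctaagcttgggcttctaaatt
Mnt, chr11:74830774-74830833, plus strand: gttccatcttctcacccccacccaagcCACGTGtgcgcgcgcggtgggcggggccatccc
Mlx, chr11:101087223-101087282, plus strand: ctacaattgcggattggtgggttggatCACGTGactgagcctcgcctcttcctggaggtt

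The Max site begins at position 248 of its window, counted from 1 at the 5′ end, and so lies at the start site, while the Mxd4 site begins at position 32. A related E-box, CACGCG or CGCGTG on the other strand, occurred in the Mga window and in none of the other 9, against 9.27% of all windows and 17.7% of those of tested genes. The interferon-type element GAAANNGAAA, or TTTCNNTTTC on the other strand, was in none of the 10 windows, against 3.44% of all windows and 3.25% of those of tested genes. Mxd3 and Mxd4 were the members called in opposite directions between the groups, and their whole windows are set side by side, with the E-box of Mxd4 in capitals. None of the 3 motifs was in the Mxd3 window, whose GC content was 71.0% against 61.0% for Mxd4.
Mxd4, chr5:34187661-34187960, minus strand: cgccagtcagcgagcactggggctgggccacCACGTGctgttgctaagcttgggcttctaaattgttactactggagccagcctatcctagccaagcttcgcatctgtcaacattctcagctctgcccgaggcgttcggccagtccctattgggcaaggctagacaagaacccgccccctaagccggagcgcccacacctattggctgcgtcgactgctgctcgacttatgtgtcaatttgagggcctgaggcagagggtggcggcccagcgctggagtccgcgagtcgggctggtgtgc
Mxd3, chr13:55329682-55329981, minus strand: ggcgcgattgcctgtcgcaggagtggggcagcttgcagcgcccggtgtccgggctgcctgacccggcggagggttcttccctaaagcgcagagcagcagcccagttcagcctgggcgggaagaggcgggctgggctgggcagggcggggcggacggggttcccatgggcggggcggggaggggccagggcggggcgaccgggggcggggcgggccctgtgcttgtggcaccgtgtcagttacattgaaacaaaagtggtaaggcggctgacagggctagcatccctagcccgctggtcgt

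Myc (Entrez gene 17869) was the least expressed of the 9 genes by its mean over the 8 libraries, while its partner and most of its antagonists were well above it. The EXO libraries 1 to 4 held 0.144, 0.393, 0.764 and 0.135 FPKM, from 13, 37, 68 and 12 fragments. The LPS libraries 1 to 4 held 0.564, 0.236, 0.123 and 1.71 FPKM, from 55, 22, 12 and 163 fragments. The groups overlapped throughout, and the highest value, in LPS replicate 4, was the only one above 1 FPKM. Myc averaged 0.359 ± 0.295 FPKM in EXO and 0.658 ± 0.726 FPKM in LPS (SD, n = 4 per group, as in all values below). It did not reach the minimum set for the main test, which was 1 FPKM in at least 4 libraries. Differences are given as EXO less LPS in units of log2(FPKM + 1), and that of Myc was -0.22 (two-sided exact permutation p = 0.629, where 0.029 is the smallest that 4 against 4 allows). In a limma fit without that minimum the 95% confidence interval was -0.86 to 0.42 (limma adjusted p = 0.591). Without LPS replicate 4 the difference was 0.05, with the sign turned.

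Max (17187), the shared partner of MYC, the MXD proteins, MNT and MGA, was the most expressed member and did not differ detectably. Its level was 46.1, 41.8, 50.1 and 43.2 FPKM in EXO replicates 1 to 4 and 42.2, 43.4, 47.3 and 52.3 FPKM in LPS replicates 1 to 4. The ranges overlapped over most of their length, and the highest library of each group was again EXO replicate 3 and LPS replicate 4. The log2 difference was -0.03, with an SE of 0.11 and a 95% confidence interval from -0.27 to 0.21 (limma adjusted p = 0.842), and its sign turned without EXO replicate 2 (0.008) or without LPS replicate 4 (0.031). Since FPKM is scaled to gene length, levels can be set side by side within a library. Myc stood at 0.312% to 1.53% of the Max level in EXO and at 0.26% to 3.27% in LPS.

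**Figure D1:**
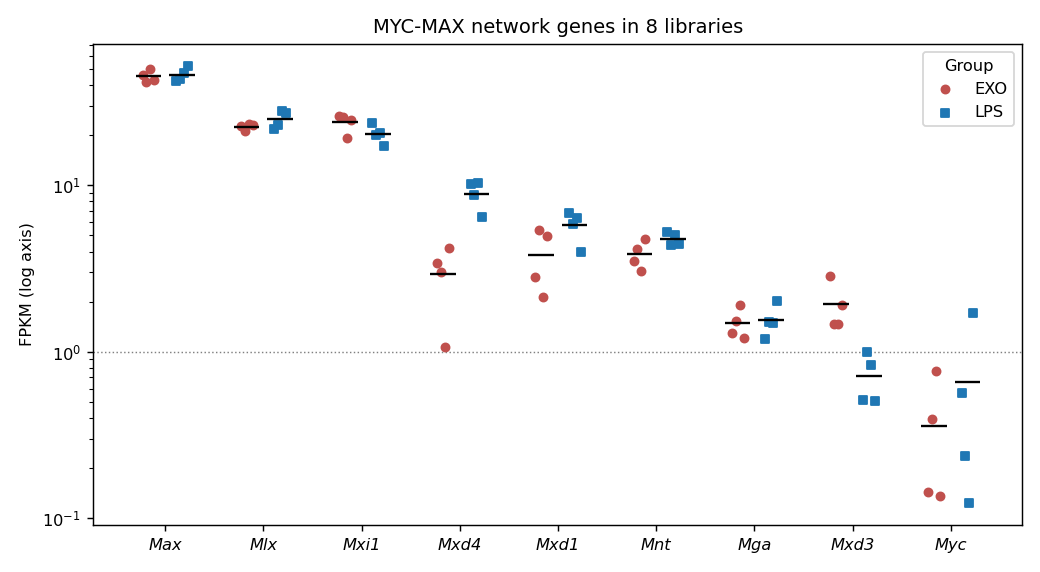
FPKM of the 9 network genes (log axis) in the 4 EXO (circles) and 4 LPS (squares) libraries, ordered by mean level. Short bars are group means and the dotted line is 1 FPKM. Max lies above 41 FPKM in every library, Myc below 1 FPKM in all but LPS replicate 4, and the groups separate for Mxd4 and Mxd3.

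Two-sided limma tests were run over 9812 genes, with Benjamini-Hochberg adjustment over all of them and a threshold of 0.05. Of the 8 members tested, Mxd3 rose, Mxd4 fell and 6 were not called. Over all tested genes 58.4% were called, 33.7% higher and 24.7% lower in EXO. The groups did not overlap in the same 2 members, against 51.2% of all tested genes. Mxd3 passed the minimum level only through the EXO group, so its entry into the tested set depended on the group in which it was higher.

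Mxd4 (17122), an antagonist associated with cells that leave the cycle and differentiate, had the largest difference among the tested members. It stood at 3.40, 3.03, 1.07 and 4.18 FPKM in EXO replicates 1 to 4, and at 10.2, 8.76, 10.3 and 6.43 FPKM in LPS replicates 1 to 4. Every EXO library was below every LPS library, and EXO replicate 3 was the lowest of all. The means were 2.92 ± 1.32 and 8.93 ± 1.81 FPKM, 3.06 times higher in LPS. The log2 difference was -1.40, with an SE of 0.26 and a 95% confidence interval from -1.98 to -0.82 (limma adjusted p = 9.63e-04). The fragments behind these values numbered 154 to 604 in EXO and 995 to 1632 in LPS.

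Mxd3 (17121), the family member that in mouse is expressed in dividing cells during S phase, moved the other way from a low level. It held 2.87, 1.47, 1.47 and 1.91 FPKM in EXO replicates 1 to 4 and 0.511, 0.993, 0.833 and 0.504 FPKM in LPS replicates 1 to 4. No LPS library reached the lowest EXO library. The means were 1.93 ± 0.656 and 0.711 ± 0.243 FPKM, 2.72 times higher in EXO, from 71 to 140 fragments per EXO library and 26 to 50 per LPS library. The log2 difference was 0.76, with an SE of 0.15 and a 95% confidence interval from 0.44 to 1.08 (limma adjusted p = 6.12e-04), and in the fit without a minimum level, where entry does not depend on the group, the limma adjusted p was 0.00787.

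Mxd1 (17119), the founding antagonist and a gene of differentiating myeloid cells, was not called, and its call depended on single libraries. Its level was 2.80, 5.35, 2.12 and 4.94 FPKM in EXO and 6.84, 5.83, 6.33 and 3.95 FPKM in LPS, replicates 1 to 4. The groups overlapped because EXO replicates 2 and 4 exceeded LPS replicate 4, which was the lowest of its group. The log2 difference was -0.53 (SE 0.23, limma adjusted p = 0.0611). It passed the threshold in 7 of the other settings, among them without EXO replicate 2 (0.0183), without EXO replicate 4 (0.0344), without LPS replicate 4 (0.0363) and after median-of-ratios rescaling (0.0456).

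Mxi1 (17859), the most abundant antagonist, and Mnt (17428), the broadly expressed one, were not called. Mxi1 was 26.1, 25.7, 19.2 and 24.7 FPKM in EXO and 23.5, 20.2, 20.5 and 17.2 FPKM in LPS, replicates 1 to 4. Its groups overlapped through EXO replicate 3, below 3 of the LPS libraries, and the log2 difference was 0.22 (95% confidence interval -0.06 to 0.50, limma adjusted p = 0.160). Mnt was 3.5, 4.15, 3.06 and 4.77 FPKM in EXO and 5.21, 4.4, 5.02 and 4.46 FPKM in LPS. EXO replicate 4 lay inside the LPS range and the other EXO libraries below it. The log2 difference of Mnt was -0.26 (95% confidence interval -0.52 to 0.01, limma adjusted p = 0.0933). Mnt passed the threshold without EXO replicate 4 (limma adjusted p = 0.0391) and after median-of-ratios rescaling (0.0408).

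**Figure D2:**
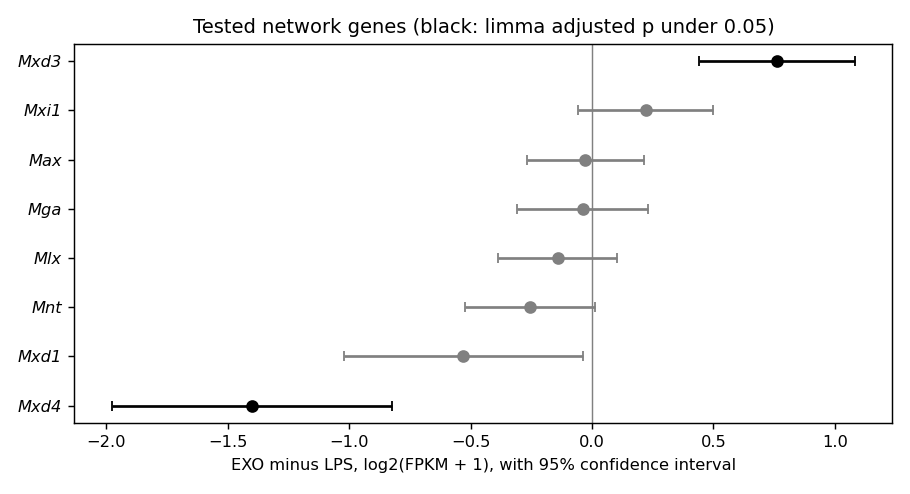
Difference between EXO and LPS means in log2(FPKM + 1) units (positive is higher in EXO) for the 8 tested members, with 95% confidence intervals from limma. Mxd3 (0.76) and Mxd4 (-1.40) are the members called at an adjusted p under 0.05, and the intervals of Max, Mga, Mlx, Mnt and Mxi1 include 0. That of Mxd1 ends just below 0 (-0.04) before adjustment over all genes.

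The summed level of the 5 MAX-pairing antagonists (Mxd1, Mxd3, Mxd4, Mxi1 and Mnt) overlapped between the groups, while the shares of Mxi1, Mxd4 and Mxd3 in it did not. The sum was 38.7, 39.7, 26.9 and 40.5 FPKM in EXO and 46.3, 40.2, 43.0 and 32.5 FPKM in LPS, replicates 1 to 4. EXO replicate 3 and LPS replicate 4 were the lowest of their groups. Mxi1 made up 61.0% to 71.3% of the sum in EXO and 47.7% to 52.8% in LPS. Mxd4 made up 3.97% to 10.3% in EXO and 19.8% to 24.0% in LPS, and Mxd3 3.71% to 7.41% and 1.10% to 2.47%. The shares of Mxd1 (7.23% to 13.5% in EXO, 12.2% to 14.8% in LPS) and Mnt (9.05% to 11.8% and 10.9% to 13.7%) overlapped. The Mxi1 share differed although the Mxi1 level overlapped and was not called. The ratio of Mxd4 to Mxd3 ranged from 0.723 to 2.19 in EXO and from 8.82 to 20.01 in LPS. These shares are a description and were given no test.

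**Figure D3:**
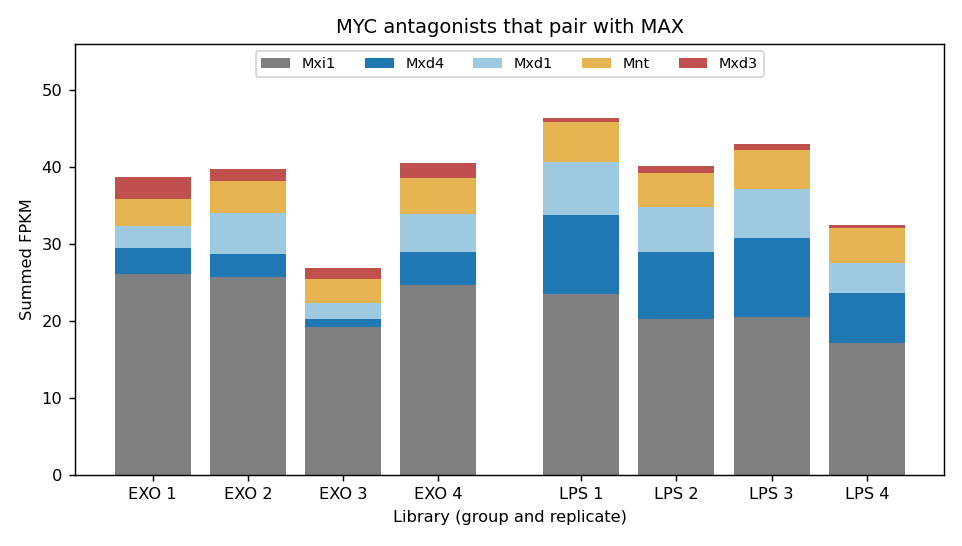
Summed FPKM of the 5 antagonists in each library, stacked by gene, with EXO on the left and LPS on the right. The total is lowest in EXO replicate 3 (26.9) and LPS replicate 4 (32.5), and the Mxd4 segment is smaller in each EXO library than in each LPS library.

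Mlx (21428), the parallel partner, and Mga (29808), whose protein pairs with MAX in PRC1.6, were not called. Mlx was 22.6, 21.2, 23.5 and 22.9 FPKM in EXO and 21.9, 23.0, 28.1 and 27.4 FPKM in LPS, replicates 1 to 4. LPS replicates 3 and 4 lay above every EXO library and the other 2 among them (log2 difference -0.14, 95% confidence interval -0.39 to 0.10, limma adjusted p = 0.302). Mga was 1.29, 1.54, 1.90 and 1.20 FPKM in EXO and 1.19, 1.5, 1.49 and 2.03 FPKM in LPS. The Mga ranges nearly coincided (log2 difference -0.04, 95% confidence interval -0.31 to 0.23, limma adjusted p = 0.806), and the sign turned without EXO replicate 4 (0.016) or LPS replicate 4 (0.047).

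Ordered by mean FPKM over the 8 libraries, the genes ran Max (45.8), Mlx (23.8), Mxi1 (22.1), Mxd4 (5.93), Mxd1 (4.77), Mnt (4.32), Mga (1.52), Mxd3 (1.32) and Myc (0.509). Max exceeded Mlx, Mxi1 exceeded Mxd4 and Mnt exceeded Mga in all 8 libraries. The other neighbours were not separated by their spread over all 8 libraries. Mlx was above Mxi1 in 4 of 8 libraries, 1 EXO and 3 LPS, and Mxd4 was above Mxd1 in 1 of 4 EXO and 4 of 4 LPS libraries. Mxd1 was above Mnt in 5 of 8 libraries, 2 EXO and 3 LPS. Mga was above Mxd3 in 6 of 8, 2 EXO and 4 LPS. Mxd3 was above Myc in 6 of 8, 4 EXO and 2 LPS. The order differed between the groups. By EXO means it ran Max, Mxi1, Mlx, Mnt, Mxd1, Mxd4, Mxd3, Mga and Myc, and Mnt was above Mxd4 in all 4 EXO libraries. By LPS means it kept the order over all libraries, with Mxd4 (8.93) above Mxd1 (5.74) and Mnt (4.77).

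In each group 1 library was the highest or the lowest of its group in several members at once. In both EXO replicate 3 and LPS replicate 4, Myc, Max and Mga were the highest of their group and Mxd1, Mxd4 and Mxi1 the lowest. Relative to its own group mean on the log2(FPKM + 1) scale, Myc lay 0.40 higher in EXO replicate 3 and 0.80 higher in LPS replicate 4. Mxd4 deviated by -0.84 and -0.40 in these libraries, and Mxd1 by -0.56 and -0.42. Mnt was lowest in EXO replicate 3 but not in LPS replicate 4, and Mxd3 was lowest in LPS replicate 4 but not in EXO replicate 3. The 70 tested genes of a list of MYC targets also had their highest median deviation of each group in these libraries, at 0.20 and 0.37. Coactivators (0.14 and 0.27), corepressors (0.06 and 0.06) and turnover genes (0.09 and 0.15) were also highest there. So were PRC1.6 genes (0.17 and 0.13) and proliferation genes (0.12 and 0.26). The median over all 9812 tested genes was 0.03 and 0.10. MYC-repressed genes (6 tested, Zbtb17 among them) were lowest in EXO replicate 3 (-0.23) but highest in LPS replicate 4 (0.31). Macrophage markers deviated there by a median of -0.15 and -0.12, and their part in the pattern was not tested. Without both libraries the log2 difference of Mxd4 was -1.25 and that of Mxd3 0.78, both called (limma adjusted p = 1.91e-06 and 0.00108).

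**Figure D4:**
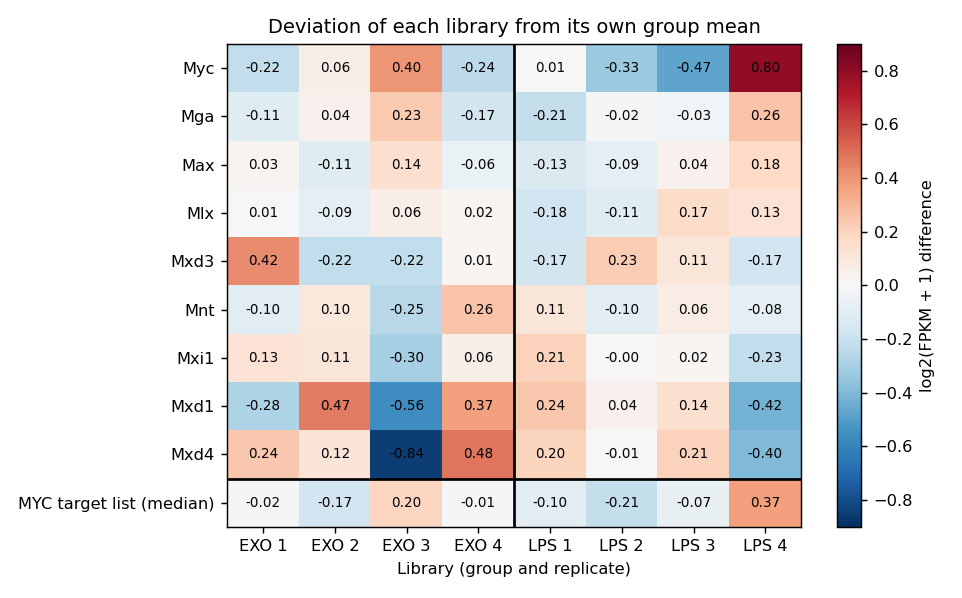
Deviation of each library from its own group mean, in log2(FPKM + 1), for the 9 genes and for the median of 70 MYC targets. Red is higher and blue lower. EXO replicate 3 and LPS replicate 4 are high for Myc (0.40 and 0.80) and low for Mxd4 (-0.84 and -0.40) and Mxd1.

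Genes known as MYC targets, from a list chosen with earlier results of these data known, were higher in EXO almost throughout. Of 73 listed genes 72 were analysed and 70 tested, and 65 of the 70 rose (limma adjusted p under 0.05) and none fell, 92.9% higher against 33.7% of all tested genes. Their median log2 difference was 0.92, against 0.085 over all tested genes. The 5 others, named after their values were seen, were Hk2, Tfb2m, Ndufaf4, Tmem97 and Sord. Odc1, ornithine decarboxylase and the first enzyme of polyamine synthesis, averaged 284 ± 37.7 FPKM in EXO and 45.2 ± 18.3 FPKM in LPS (log2 difference 2.69, SE 0.22, limma adjusted p = 1.33e-06). Fbl (fibrillarin), which methylates ribosomal RNA, averaged 205 ± 26.0 and 77.5 ± 17.2 FPKM. Mrto4, a ribosome assembly factor, averaged 120 ± 14.4 and 44.2 ± 7.35 FPKM, and Dctpp1, a nucleotide pyrophosphatase, 149 ± 27 and 45.7 ± 8.01 FPKM. Every EXO library exceeded every LPS library in 57 of the 70 genes, against 29.1% of all tested genes. Of the 72 analysed targets, 63 had a promoter window. CACGTG was in 18 of the 63 (28.6%), against 12.6% of tested genes with a window. Among tested genes with a window it was in 12.7% of those called higher in EXO and 12.1% of those called lower. The related E-box was in 24.4% of those called higher and 16.2% of those called lower, against 20.9% of tested genes. It was in 31.7% of the 63 targets. The interferon-type element was in 2.51% of those called higher and 7.2% of those called lower, against 3.94%. These shares were given no test.

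Cell cycle genes moved with the targets, a list that itself holds some, among them Mcm4, Mcm5 and Plk1. Of 19 proliferation genes 18 rose (94.7%, against 33.7% of all tested genes). Their median log2 difference was 1.15, against 0.085 over all tested genes. E2f1, a transcription factor of S-phase entry named after its values were seen, was not called, at 16.8 ± 2.06 FPKM in EXO and 20.3 ± 4.56 FPKM in LPS. Mcm7, a subunit of the replicative helicase, averaged 83.5 ± 3.59 FPKM in EXO and 31.6 ± 3.85 FPKM in LPS, and Ccnb2 (cyclin B2), which drives mitosis, 63.2 ± 11.3 and 20.3 ± 3.42 FPKM. Tyms, which makes thymidylate, averaged 18.1 ± 1.41 and 7.11 ± 1.04 FPKM, and Birc5 (survivin) 43.2 ± 3.41 and 18.5 ± 2.73 FPKM. In the same libraries 12 of 14 tested macrophage markers fell, against 24.7% of all tested genes, and the part of that difference in the counts of MYC targets and proliferation genes was not tested. Of the proliferation genes with a promoter window, 1 of 17 held CACGTG and 0 of 17 the related E-box.

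Of 5 tested genes that MYC represses, mostly with MIZ1, 3 fell, against 24.7% of all tested genes, and 1 rose, against 33.7%. Their median log2 difference was -0.72. The list as drawn up held 6 tested genes, because it included Zbtb17, which was set apart from it afterwards. Over those 6 genes 3 fell and 2 rose, and the median was -0.589. Cdkn1a (p21), an inhibitor of cyclin-dependent kinases, averaged 32.5 ± 1.36 FPKM in EXO and 79.1 ± 18.6 FPKM in LPS (log2 difference -1.23, SE 0.14, limma adjusted p = 6.80e-06). Cdkn1b (p27), another such inhibitor, averaged 7.86 ± 1.44 and 13.5 ± 2.06 FPKM, and the stress gene Gadd45b 17.6 ± 5.63 and 31.6 ± 5.20 FPKM. Gadd45a, named after its values were seen, rose in the main fit, at 13.3 ± 3.42 FPKM in EXO and 6.77 ± 4.28 FPKM in LPS (limma adjusted p = 0.0322). Its groups overlapped through LPS replicate 4 (13 FPKM), and the call was lost in 5 of 8 omissions of a single library, namely EXO replicate 2 or 4 or LPS replicate 1, 2 or 3 (limma adjusted p up to 0.0807). Ndrg1, also named after its values were seen, was not called. Zbtb17, which encodes MIZ1 itself, was higher in EXO, at 5.24 ± 0.870 FPKM against 3.57 ± 0.688 FPKM in LPS.

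**Figure D5:**
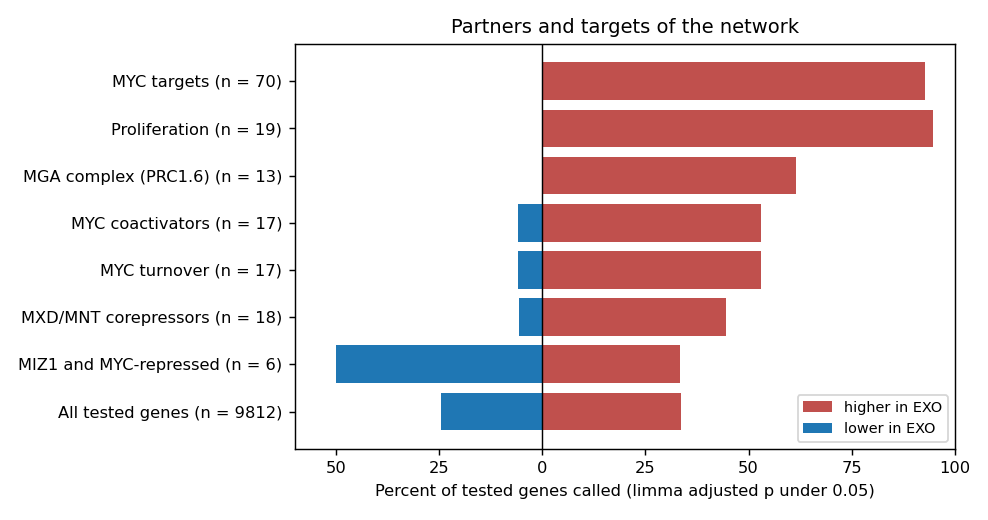
Percent of tested genes called higher (right) or lower (left) in EXO in 7 lists around the network and over all 9812 tested genes. MYC targets (92.9%) and proliferation genes (94.7%) are nearly all higher, against 33.7% of all genes.

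Of 17 genes for MYC coactivators 9 rose (52.9%, against 33.7% of all tested genes) and 1 fell (5.88%, against 24.7%), with 7 left uncalled. Their median log2 difference was 0.31, against 0.085 over all tested genes. Ruvbl1 and Ruvbl2, the paired ATPases of chromatin remodelling complexes, averaged 97.8 ± 16.0 and 118 ± 15.1 FPKM in EXO, against 36.3 ± 8.49 and 38.4 ± 6.67 FPKM in LPS. Kat2a (GCN5), a histone acetyltransferase, averaged 24.4 ± 3.65 and 11.6 ± 2.26 FPKM, and Wdr5, a chromatin adaptor that binds MYC, 31.0 ± 4.02 and 15.9 ± 2.25 FPKM. Trrap, the scaffold that MYC contacts, was named after its values were seen and was not called, at 4.54 ± 0.567 and 5.27 ± 0.735 FPKM. Ep300, an acetyltransferase likewise named after its values were seen, was the one that fell, at 5.92 ± 0.770 FPKM in EXO and 8.94 ± 1.57 FPKM in LPS.

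Corepressors used by the MXD proteins and MNT were called higher in 8 of 18 cases (44.4%), near the 33.7% of all tested genes, and lower in 1 (5.56%, against 24.7%). The median log2 difference was 0.24, against 0.085. Hdac3, a histone deacetylase, averaged 31.4 ± 2.81 FPKM in EXO and 20.1 ± 1.69 FPKM in LPS, and the histone chaperones Rbbp4 and Rbbp7 averaged 74.2 ± 2.28 and 124 ± 7.69 FPKM against 51.0 ± 4.14 and 75.9 ± 7.39 FPKM. Arid4a, a SIN3 complex subunit, fell to 2.60 ± 0.171 from 4.55 ± 0.353 FPKM. The SIN3 scaffolds that bind MXD proteins directly were named after their values were seen and were not called. Sin3a averaged 9.43 ± 1.37 and 7.57 ± 0.465 FPKM (limma adjusted p = 0.0582) and Sin3b 27.7 ± 1.82 and 26.5 ± 1.57 FPKM (0.639).

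Around MGA, 8 of 13 genes of the PRC1.6 complex rose (61.5%, against 33.7% of all tested genes) and none fell, while Mga itself was not called. The median log2 difference was 0.64, against 0.085. Of the 8, Wdr5, Hdac2 and Cbx3 also stand in the coactivator, corepressor and target lists. The 5 left uncalled, named after their values were seen, were E2f6, Ring1, Rnf2, Rybp and Hdac1. Pcgf6, the subunit that defines this complex, averaged 16.3 ± 2.29 FPKM in EXO and 7.79 ± 1.31 FPKM in LPS. Tfdp1, a DNA-binding partner of E2F factors, averaged 56.4 ± 5.11 and 34.5 ± 3.39 FPKM, and Yaf2 21.0 ± 1.32 and 11.9 ± 1.67 FPKM. Among genes that set MYC protein stability or its modification, 9 of 17 rose (52.9%, against 33.7% of all tested genes) and 1 fell (5.88%, against 24.7%), and the median was 0.47. The one that fell was Gsk3b, a kinase that marks MYC for degradation and named after its values were seen, at 6.53 ± 0.902 FPKM in EXO and 9.09 ± 0.802 FPKM in LPS. Usp28 and Usp36, deubiquitinases that spare MYC from degradation, averaged 5.24 ± 0.493 and 7.04 ± 1.48 FPKM in EXO and 2.79 ± 0.401 and 3.70 ± 0.885 FPKM in LPS, and Usp37 6.73 ± 0.655 and 4.30 ± 0.573 FPKM. Pim2, a kinase of the PIM family, averaged 12.3 ± 1.6 and 4.82 ± 1.41 FPKM. Genes of factors that promote MYC turnover also rose, and are named after their values were seen. Gsk3a, a kinase related to Gsk3b, averaged 42.6 ± 2.13 and 30.6 ± 2.58 FPKM, Axin1, a scaffold of that pathway, 9.87 ± 0.723 and 6.90 ± 1.07 FPKM, and the ubiquitin ligase genes Skp2 and Trim32 7.28 ± 0.902 and 5.45 ± 0.862 FPKM against 4.78 ± 0.471 and 3.55 ± 0.720 FPKM. Genes on both sides of MYC turnover were thus among those that rose. RNA levels say nothing of MYC protein, which was not measured.

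On the MLX side, Mlxip (MONDOA) was not called, at 5.34 ± 0.475 FPKM in EXO and 5.59 ± 0.531 FPKM in LPS (log2 difference -0.05, limma adjusted p = 0.695). Mlxipl (ChREBP) was too low to be tested, at 0.0708 ± 0.0247 and 0.0329 ± 0.0327 FPKM. Of the MONDOA targets, Txnip, an inhibitor of glucose uptake, fell to 79.4 ± 19.1 FPKM in EXO from 121 ± 9.04 FPKM in LPS (log2 difference -0.63, SE 0.15, limma adjusted p = 0.00215). Arrdc4, its relative, was not called, at 6.42 ± 1.58 and 7.53 ± 0.837 FPKM. Mycn and Mycl, the paralogs of Myc, are not analysed here.

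The genes whose profiles were most like those of the called members were found by the root mean square difference between mean-centred log2(FPKM + 1) values over the 8 libraries. For Mxd4 they were Rras, a RAS-related GTPase (0.187), Pnrc1, a nuclear receptor coregulator (0.193), and Ccng2, an atypical cyclin (0.225), against a median of 0.869 over tested genes. Ccng2 averaged 8.06 ± 2.83 FPKM in EXO and 18.5 ± 5.40 FPKM in LPS. For Mxd3 they were Ndufb4, a subunit of respiratory complex I (0.119), Smim26 (0.120) and the non-coding Snhg20 (0.124), against a median of 0.463. Ndufb4 averaged 206 ± 29.6 and 118 ± 9.70 FPKM. The match to Mxd3 depends on the 1 FPKM added before the logarithm, which matters little for so abundant a gene. With it the difference was 0.763 for Mxd3 and 0.789 for Ndufb4. In voom on fragments that of Mxd3 was 1.438. The nearest genes were not sought on another scale.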

How the data were processed

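Per the labels' protocols, RNA was extracted with TRIzol and sequenced after library preparation with a VAHTS Universal V6 kit. The submitters' processing notes name HISAT2 and the build GRCm39 (mm39). For the counting tool, strand setting and annotation, the sources used here give nothing. The authors deposited a single table of FPKM, a unit inferred from the values because the header names none. All 17645 detected genes stepped in whole fragments (tolerance 0.001, looser for the highest fragment numbers), which gave the depths as the smallest whole-number solution. A gene detected in a single library met this by construction.

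Values were taken as log2(FPKM + 1), which understates the change of low genes. Genes with at least 1 FPKM in at least 4 libraries (9812) were fitted in limma 3.58.1 under R 4.3.3, with trend and robust variances. The permutation test used SciPy 1.17.1. The fit was tested on simulated data. Members and lists were chosen with earlier results of these data known. Of 254 list entries, 214 were analysed. Named from each longer list were the 4 tested genes with the smallest p, from each marker list the 3 highest genes, and for called members the 3 nearest genes. Alternatives covered the pseudocount, filter, scaling, model, replicate block and left-out libraries. Whether replicates were separate cultures is not stated, so the p-values may reflect technical spread alone. No libraries looked duplicated.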

Additional observations from a re-analysis of the deposited data

Results flagged for a closer look

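The summed level of the 5 MAX-pairing antagonists was 26.87 FPKM in EXO replicate 3, far below the other EXO libraries (38.7, 39.7 and 40.5 FPKM). Its gap to the nearest library took up more of the group's range than the 95% critical value of Dixon's test allows for 4 samples. Chance gives this in about 1 of 20 groups, and 26 groups of values were examined.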

How the results depend on the processing

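Mxd4 kept its direction and call in every alternative run, and Mxd3 in every one except a mean FPKM of at least 5, which it did not reach, so that 0 members were called higher there. Members called lower numbered 3 after median-of-ratios rescaling (with Mxd1, log2 difference -0.591, and Mnt, -0.316), 2 without trend and robust variances (Mxd1, -0.530) and 3 without EXO replicate 2 and LPS replicate 4 together (Mxd1, -0.827, and Mnt, -0.313). They numbered 2 without EXO replicate 3 and LPS replicate 4 together (Mxd1, -0.485), a setting chosen after seeing the data, as was voom with no minimum level. Leaving out 1 library at a time gave 1 to 3 lower members, with Mxd1 from -0.686 to -0.343 and Mnt from -0.342 to -0.172. Max ranged from -0.077 to 0.031 and Mga from -0.117 to 0.047 over these, and they were 0.067 and 0.034 without EXO replicate 2 and LPS replicate 4. Neither was called in any setting.

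Rescaling gave 2 lower coactivators, 2 lower turnover genes and 2 lower corepressors, and a corepressor median of 0.177. It moved the median of all tested genes from 0.085 to 0.022. A mean FPKM of at least 5 left 0 lower corepressors, and leaving out single libraries 1 to 2. The list of MIZ1 (Zbtb17) and MYC-repressed genes, with 2 higher calls, had 1 without a minimum level, where Gadd45a was lost, 1 with a mean of at least 5, which Zbtb17 did not reach, and 1 to 2 with single libraries left out, and its median was -0.346 without EXO replicate 3 and LPS replicate 4. Of the proliferation genes, 0 to 1 was lower with single libraries left out, and 1 without both of these. The cause of the other changes was not tested. With a replicate block, 3253 genes were higher and 2339 lower, and Mxd3 and Mxd4 stayed called (limma adjusted p = 0.00225 and 0.00355). The deviations of same-numbered libraries correlated at 0.045, 0.17, -0.292 and -0.109, so the numbers were not taken as pairs. The highest value of any EXO and LPS pair was 0.352, for EXO replicate 3 with LPS replicate 4. Myc rested on 12 to 163 fragments per library at even depth, and its libraries differed widely within each group.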
